A study of Homo sapiens with 3 samples.

Results

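Ubiquitin and the small proteins that share its fold were examined in HEK293T ribosome profiling libraries as a set of 7 genes chosen by name: UBB, NEDD8, SUMO2, SUMO3, UFM1, URM1 and UBL5. Of these, 6 were listed in every library, among 8812 transcripts that all 3 libraries listed, and SUMO3 was not listed in the tables and is not analysed here. Ribosome profiling sequences the mRNA pieces that ribosomes shield from nuclease (ribosome-protected fragments, RPFs), and the tables give their density on the 5′UTR, the coding sequence (CDS) and the 3′UTR of a single transcript per gene. HEK293T is an established line from human embryonic kidney cells that expresses the SV40 large T antigen. The untreated group held 2 libraries, Untreated A and Untreated B, and the treated group held 1, G418 A, from cells given the aminoglycoside G418 at 500 µg/mL for 24 hours, all from this single line with no genetic change between groups. Because G418 had 1 library, the treatment and anything particular to that library cannot be told apart. The labels do not say whether the untreated libraries came from separate cultures, while the study describes its replicates as biological.

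Ubiquitin-like proteins fold into a compact domain with a flexible tail, and most of them are joined through a glycine at the end of that tail to other proteins. Several are made as inactive precursors that carry extra residues behind a pair of glycines, and a protease cuts these residues off before an activating enzyme can use the protein. Polyubiquitin, the product of UBB, is a chain of ubiquitin copies that is cut into single units in the same way. Aminoglycosides such as G418 bind the decoding centre of the ribosome and let it insert an amino acid at a stop codon. A ribosome that does so goes on past the normal termination codon (NTC) until it meets the next stop codon in its frame, the 3′TC, and the protein it makes ends in a longer tail.

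The sequence around the NTC is shown for each gene because it sets what follows the last glycine codon and which stop signal the ribosome meets. Each line gives the 15 nt before the stop codon, the stop codon and the next 12 nt of the mRNA, 5′ to 3′, with the stop signal (the stop codon and the nucleotide after it) in capitals. The letters were read from hg38 at the coordinates given, and all the stop codons lie in the last exon of their transcript.
UBB, chr17:16382580-16382609, plus strand: cugagggguggcuguUAAUucuucagucau
NEDD8, chr14:24217115-24217144, minus strand: gguggucuuaggcagUGAUggacccuccau
SUMO2, chr17:75168327-75168356, minus strand: acgggaggugucuacUGAAaagggaaccug
UFM1, chr13:38360761-38360790, plus strand: cguguuggaaguuguUAAUaucugcuacuu
URM1, chr9:128389717-128389746, plus strand: acucugcacggcggcUGAGggcccuucucu
UBL5, chr19:9829991-9830020, plus strand: gagcuuuauuaucaaUAGAugagaauccuc

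These windows differ in how much coding sequence is left behind the last glycine codon. In UBB (transcript ENST00000395839.5) 1 codon stood between that glycine codon and the stop, in SUMO2 (ENST00000420826.7) and UFM1 (ENST00000239878.9) 2, and in NEDD8 (ENST00000250495.10) 3. The site where a protease cuts was not determined here, so these counts need not equal the number of residues removed. URM1 (ENST00000372853.8), whose product is known to need no trimming, had 0, so that its stop codon came directly after a glycine codon. UBL5 (ENST00000586895.5), known as a modifier that lacks the glycine pair and is not conjugated like the others, had 8. The window of UFM1 shows no pair of neighbouring glycine codons either. UBB and UFM1 shared the stop signal UAAU and also the codon UGU just before it, while UGA was the stop codon of NEDD8, SUMO2 and URM1, and UAG that of UBL5. The stretch a readthrough ribosome would translate was short in every case: 9 sense codons to the 3′TC in URM1, 10 in UBB, 12 in both NEDD8 and UFM1, 20 in UBL5 and 21 in SUMO2. The next stop signal was UGAU in UBB, UAAU in NEDD8, UAAA in UFM1 and UAGA in the other three. Behind it, the 3′UTR was 143 nt long in UBB, 270 nt in NEDD8, 107 nt in UBL5, 2282 nt in URM1, 2753 nt in SUMO2 and 2841 nt in UFM1, counted from the NTC.

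Many of the genes have copies of parts of their sequence elsewhere in the genome, which bears on the densities of those parts. Of all the 28-nt stretches (the shortest RPF counted) that the counted CDS of UBB can give, 76.0% had an exact copy elsewhere in hg38, 422 of 657 in the pseudogene UBBP4. The share was 92.9% for SUMO2, 34.3% for NEDD8, 28.9% for UFM1, 24.3% for UBL5 and 0% for URM1. In the readthrough region all 60 stretches of SUMO2 and all 33 of UFM1 had a copy, against 4 of 27 in UBB, 3 of 33 in NEDD8 and 0 in URM1 and UBL5. Some RPFs of every gene but URM1 could therefore have been credited to or from another locus by the alignment. The shares were largest for SUMO2, the readthrough region of UFM1 and the CDS of UBB. The part of this in the values was not tested.

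Readthrough was measured by the ribosome readthrough score (RRTS), which sets the RPF density of the stretch from the NTC to the 3′TC over the CDS density of that transcript, here in percent. The intervals given with it are exact 95% intervals for counting error in the readthrough region and the CDS, and cover neither culture nor library error. RRTS was higher in G418 A than in both untreated libraries for all 6 genes, beside 72% of the 5684 transcripts tested (those whose mean CDS count was above 127.7 reads and whose readthrough region had at least 18 nt). In the untreated libraries only UBB, SUMO2 and UBL5 had any read in this region, which was 3 of 6 genes in each library beside 24% of transcripts in Untreated A and 22.3% in Untreated B, and in G418 A all 6 had reads beside 75.8%. The 4 genes whose G418 interval lay above both untreated intervals were UBB, NEDD8, SUMO2 and UBL5, beside 25.6% of all transcripts tested. These shares are not matched for depth, and reads or separate intervals are easier to obtain at high CDS density. UBL5, UBB, SUMO2 and NEDD8 ranked 37, 44, 119 and 455 of the 5684 transcripts in CDS density without treatment. The change of the readthrough to CDS ratio was tested with edgeR's quasi-likelihood test over all 5684 transcripts, which called 0.757% of them higher in G418 A (Benjamini-Hochberg adjusted p under 0.05), UBB alone among the 6, and none lower. At an unadjusted p under 0.05 it called 10.6% higher, which took in UBB and NEDD8, and 0 lower, while DESeq2 called 24.6% of 5573 transcripts higher, which took in UBB, NEDD8, SUMO2 and UBL5, with 0 lower after adjustment and 1 at an unadjusted p under 0.05. The edgeR test has 1 residual degree of freedom, from the untreated pair, and assumes that G418 A varies as that pair does.

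**Figure D1:**
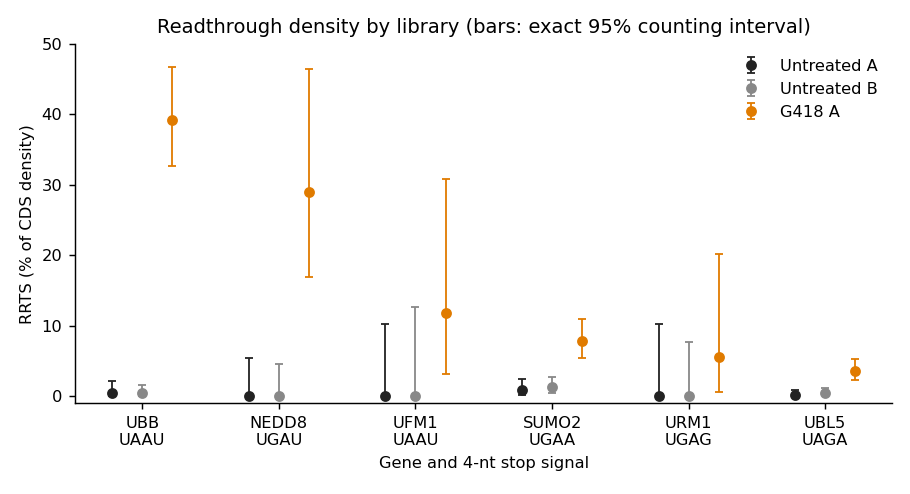
RRTS (percent of CDS density, linear axis) of each gene in Untreated A, Untreated B and G418 A, with the 4-nt stop signal under the gene name; bars are exact 95% counting intervals. The G418 A points of UBB (39.2%) and NEDD8 (29.0%) stand above the rest, which lie between 3.61% and 11.9%.

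UBB, a stress-inducible source of ubiquitin, had 131 readthrough reads over the 3 libraries, of which 1 was in Untreated A, 2 were in Untreated B and the rest were in G418 A. Its RRTS was 0.394% and 0.450% in these untreated libraries, and 39.2% (32.7 to 46.7) after G418. Both untreated libraries were near 0 and the groups did not overlap. The untreated mean was 0.422% ± 0.0394 (SD, n = 2), and the G418 value was 91.3 times the pooled untreated value (counting interval 30.5 to 449). The edgeR quasi-likelihood test gave an adjusted p of 0.00502 for this rise, and DESeq2 gave 4.78e-04.

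NEDD8, the modifier that activates cullin ubiquitin ligases, had 0 readthrough reads in Untreated A and Untreated B and 18 in G418 A, where RRTS was 29.0% (17.0 to 46.4). Its G418 interval lay far above 2.03%, the RRTS that 3 reads over both untreated libraries together would give and the upper limit that a count of 0 allows. The G418 value itself was 14.3 times this floor, a ratio that leaves out the counting error of its 18 reads. The adjusted p was 0.465 by edgeR (0.0488 before adjustment) and 0.0120 by DESeq2, so the call depended on the model.

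SUMO2, a modifier conjugated to many nuclear proteins under stress, had an RRTS of 0.835% in Untreated A (3 reads), 1.26% in Untreated B (6 reads) and 7.88% in G418 A (35 reads). The G418 library was the highest, and its value was 7.30 times the pooled untreated one (3.44 to 17.3). The untreated mean was 1.05% ± 0.304 (SD, n = 2). The edgeR adjusted p was 0.550 and that of DESeq2 0.0435.

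UFM1, which marks ribosomes at the endoplasmic reticulum among other targets, rested on few reads: 0 in each untreated library and 4 in G418 A, for an RRTS of 11.9% (3.20 to 30.8). Its G418 interval reached below 4.58%, the limit that a count of 0 over both untreated libraries allows. This interval therefore did not set G418 A apart from the untreated libraries. The G418 value itself was 2.59 times that limit, on 4 reads. The adjusted p was 0.581 by edgeR and 0.110 by DESeq2.

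URM1, a sulfur carrier for the thiolation of tRNA that can also be conjugated to proteins, had no readthrough read without treatment and 2 in G418 A. The RRTS there was 5.54%, and its interval (0.668 to 20.1) took in 3.55%, the limit that the untreated count of 0 allows. Here too the interval did not set G418 A apart from the untreated libraries. The adjusted p was 0.620 by edgeR and 0.215 by DESeq2.

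UBL5, a partner of spliceosome proteins, had the lowest G418 score of the 6 despite one of the deepest coding sequences: 0.156% in Untreated A (1 read), 0.429% in Untreated B (4 reads) and 3.61% in G418 A (25 reads; 2.33 to 5.34). Its untreated mean was 0.293% ± 0.193 (SD, n = 2), and the G418 value was 11.3 times the pooled untreated one (4.27 to 37.9). That ratio was 8.41 without Untreated A and 23.1 without Untreated B, the latter more than 1.5 times the pooled ratio. The edgeR adjusted p was 0.495 and that of DESeq2 0.0470.

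In order of RRTS in G418 A the genes ran UBB, NEDD8, UFM1, SUMO2, URM1 and UBL5. The counting intervals of UBB and NEDD8 overlapped, and so did those of NEDD8 and UFM1, UFM1 and SUMO2, SUMO2 and URM1, and URM1 and UBL5, so that no gene stood apart from its neighbour in this order. Farther apart in it, the intervals of UBB and SUMO2 did not overlap, nor did those of NEDD8 and SUMO2 or of SUMO2 and UBL5. The median over the 6 genes was 9.87% and over all transcripts tested 18.4%.

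Because the stop signal differs between the genes, each was set beside all tested transcripts with the same 4 nt in G418 A. UBB exceeded 78.3% of the 304 transcripts that end in UAAU, whose median RRTS was 11.6%, and 65 of them were higher. UFM1, with the same signal and the same preceding codon, lay at the median (above 50% of them). NEDD8 was above 45.5% of 376 UGAU transcripts, with a median of 31.6%. The other three lay in the lower part of their groups: SUMO2 above 22.7% of 788 UGAA transcripts (median 29.8%), URM1 above 25.7% of 1054 UGAG transcripts (median 19.9%) and UBL5 above 25.4% of 351 UAGA transcripts (median 17.8%). These positions are a description within a single library and carry no test. Those of UFM1 and URM1 rest on 4 and 2 reads. Their counting intervals (3.20 to 30.8% and 0.668 to 20.1%) took in the median of their own group, so neither position is firm. The interval of NEDD8 (17.0 to 46.4%) took in the median of its group as well, so its position is not firm either.

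**Figure D2:**
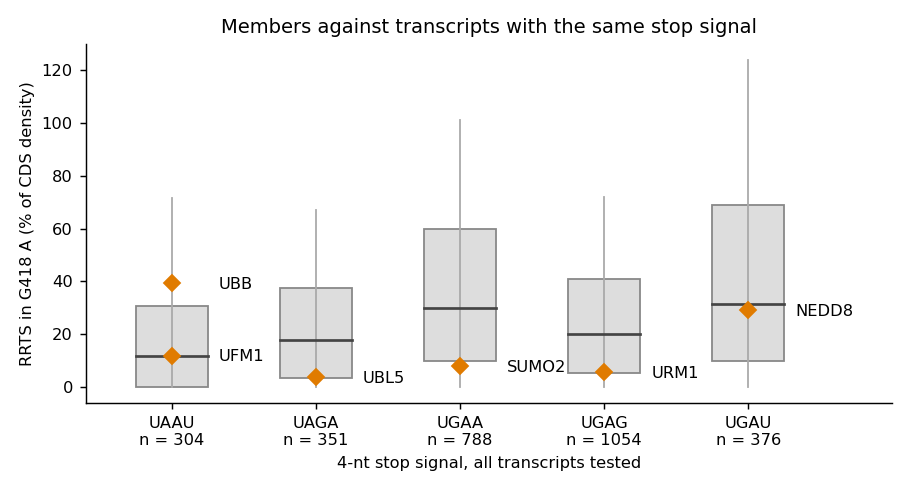
RRTS in G418 A (percent of CDS density) of the 6 genes (diamonds) over all tested transcripts with the same 4-nt stop signal; the box spans the lower to the upper quartile, its line is the median and the vertical line runs from the 10th to the 90th percentile. UBB lies above the box of UAAU transcripts (upper quartile 30.6%), SUMO2 lies under the box of UGAA transcripts (lower quartile 9.65%), and the rest lie inside theirs.

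Ribosomes that stop at the 3′TC should leave less density behind it. This part of the 3′UTR was compared after its values had been seen, so the counts are given without a test. Its density relative to the CDS was higher in G418 A than in both untreated libraries for all 6 genes, beside 58.9% of 5236 transcripts with at least 30 nt there. For UBB it was 0.678% in Untreated A (7 reads), 0.331% in Untreated B (6 reads) and 5.64% in G418 A (75 reads), over 110 nt. The G418 value was thus high behind the 3′TC as well, at 0.144 of the density in front of it. For SUMO2 it was 0.0373% (6 reads), 0.0235% (5 reads) and 0.281% (56 reads) over 2687 nt, and for URM1 0.206% (7 reads), 0.331% (15 reads) and 1.24% (42 reads) over 2252 nt.

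NEDD8 had reads behind the 3′TC in every library although it had none in front of it without G418: 1.90% (9 reads), 2.14% (12 reads) and 4.37% (19 reads) of its CDS density over 231 nt. UFM1 stayed low, at 0.130% (4 reads), 0.241% (6 reads) and 0.314% (9 reads) over 2802 nt. UBL5 had 1.66% (8 reads), 0.569% (4 reads) and 2.10% (11 reads) over only 43 nt, and the untreated libraries differed from each other by more than G418 A differed from Untreated A. In G418 A the density behind the 3′TC over that in front of it was lowest in UFM1 (0.0265) and SUMO2 (0.0357), 0.151 in NEDD8, 0.224 in URM1 and highest in UBL5 (0.583). In front of it lay only 4 reads in UFM1 and 2 in URM1. The stretches also differ in length, and the 3′UTRs hold unlike numbers of in-frame stop codons. These were 65 in UFM1, 40 in SUMO2, 30 in URM1, 4 in UBB, 3 in UBL5 and 2 in NEDD8. The order of the ratios is therefore no ranking of termination at the first 3′TC. Of the 28-nt stretches behind the 3′TC, 87 of 99 in UBB, 17 of 33 in UBL5, 1182 of 2676 in SUMO2, 58 of 220 in NEDD8, 454 of 2791 in UFM1 and 0 of 2241 in URM1 had an exact copy elsewhere in hg38, and the part of this in these densities was not tested.

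CDS density, the RPF reads per kilobase of coding sequence, scaled to the library's total (RPKM), changed little between the untreated libraries and G418 A. None of the 6 genes was called by edgeR in either direction, beside 3.04% of transcripts called higher and 0.581% called lower (173 and 33, or 110 and 41 with TMM factors), and 0 of the 6 had an unadjusted p under 0.05, beside 11.4% of transcripts higher and 3.52% lower at that level. DESeq2, which gave an adjusted p for 3 of them (UBB, SUMO2 and UBL5), called none of these either. None changed by 2-fold or more, beside 1.06% of transcripts that rose and 0.088% that fell by that much. Their log2 changes over the untreated mean ran from -0.22 to 0.14 with a median of -0.05, and the median over all tested transcripts was 0.07. For each of the 6 the difference between the untreated libraries was larger than that between G418 A and their mean. A G418 value equal to that of 1 untreated library would also meet this condition. Its share over all transcripts was not computed, so the count is a description only. The G418 density fell outside the untreated range for 3 of the 6, beside 74.2% of all transcripts. Density is set both by the number of mRNA molecules and by the ribosomes on each, which cannot be told apart here. Because it is scaled to the total of a bulk library, it also carries no measure of the number of cells or of the RNA per cell.

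UBL5 and UBB had the highest densities of the 6, at ranks 37 and 44 of the 5684 transcripts without treatment. UBL5 measured 1915 RPKM (Untreated A), 1726 RPKM (Untreated B) and 1684 RPKM (G418 A; untreated mean 1821 ± 134, SD, n = 2). G418 A was the lowest of the 3 libraries by a small margin, with a log2 change of -0.11 and an edgeR adjusted p of 0.849. UBB measured 1603, 1736 and 1674 RPKM, so that G418 A lay between the untreated libraries (mean 1670 ± 94.0, SD, n = 2).

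SUMO2 measured 1022 RPKM in Untreated A and 835 RPKM in Untreated B, and 1026 RPKM in G418 A, a log2 change of 0.14 with an edgeR adjusted p of 0.774. NEDD8 measured 350, 256 and 261 RPKM, and URM1 258, 213 and 209 RPKM. In both, Untreated A was the highest library and G418 A was close to Untreated B, with log2 changes of -0.22 and -0.17 and edgeR adjusted p values of 0.758 and 0.820. UFM1, at 187, 93.8 and 142 RPKM in the order Untreated A, Untreated B and G418 A, varied most within the untreated pair. The SD of the log2 difference between the untreated libraries was 0.29 over all transcripts, and that of UFM1 was larger than this, with G418 A between them.

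**Figure D3:**
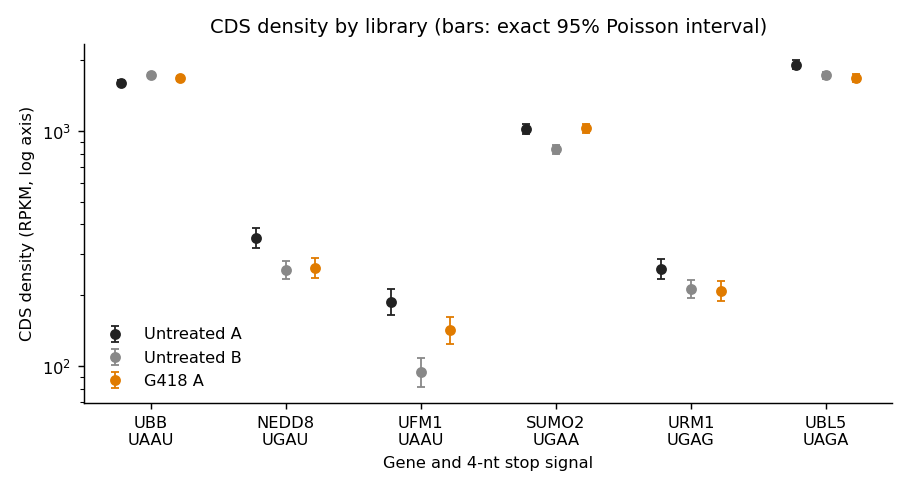
CDS density (RPKM, log axis) of each gene in the 3 libraries, with exact 95% Poisson intervals for the reads. The G418 A points lie within or close to the range of the untreated pair, and the widest gap between untreated libraries is that of UFM1 (187 and 93.8 RPKM).

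The order of the levels was the same in each untreated library for all but the top pair: SUMO2 above NEDD8, NEDD8 above URM1 and URM1 above UFM1. UBL5 and UBB changed places within the untreated pair, since UBB was higher in Untreated B (1736 against 1726 RPKM) and lower in Untreated A (1603 against 1915 RPKM). These 2 neighbours therefore did not differ beyond their spread. For each neighbouring pair below them, the exact 95% Poisson intervals lay apart in both untreated libraries. NEDD8 and URM1, the closest of these pairs in Untreated B, spanned 234 to 279 and 195 to 231 RPKM there, although their untreated means over libraries were 303 ± 66.6 and 235 ± 31.9 RPKM (SD, n = 2).

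The 5′UTR of SUMO2 lost most of its RPFs in G418 A, a comparison that was chosen after its values had been seen and has no test. It held 147 and 206 reads in Untreated A and Untreated B, and 34 in G418 A, or 211 (178 to 248), 183 (159 to 209) and 39.6 (27.4 to 55.3) RPKM with exact 95% Poisson intervals. The untreated libraries were close to each other and the interval of G418 A lay below both. Relative to the CDS, the density was 20.6%, 21.9% and 3.86%, a log2 change of -2.46, which ranked 14 from the largest fall among 1054 transcripts with a mean of at least 20 reads in the 5′UTR. The median of those transcripts was -0.33, and 2.47% of them fell by 2 or more on the log2 scale. No AUG triplet was found in the reference 5′UTR of SUMO2 (125 nt), which has the length the tables use. Of its 28-nt stretches, 86 of 103 had an exact copy elsewhere in hg38, and the part of this in the change was not tested.

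UBL5 and NEDD8 were the only others with enough reads there. UBL5 held 45, 161 and 39 reads, or 4.09%, 10.0% and 3.27% of its CDS density in Untreated A, Untreated B and G418 A. G418 A was the lowest, but Untreated A was close to it and far from Untreated B, and the log2 change of -1.11 is smaller than the log2 distance within the untreated pair. NEDD8 held 30, 25 and 26 reads (15.6%, 11.0% and 14.7%), with G418 A between the untreated libraries. A fall of 1 or more on the log2 scale was thus seen in 2 of these 3 genes (SUMO2 and UBL5), beside 20.9% of the 1054 transcripts, and the same 2 were lower in G418 A than in both untreated libraries, beside 51.8%. UBB had 2, 10 and 5 reads in its 5′UTR, UFM1 2, 0 and 7, and URM1 0 in every library.

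**Figure D4:**
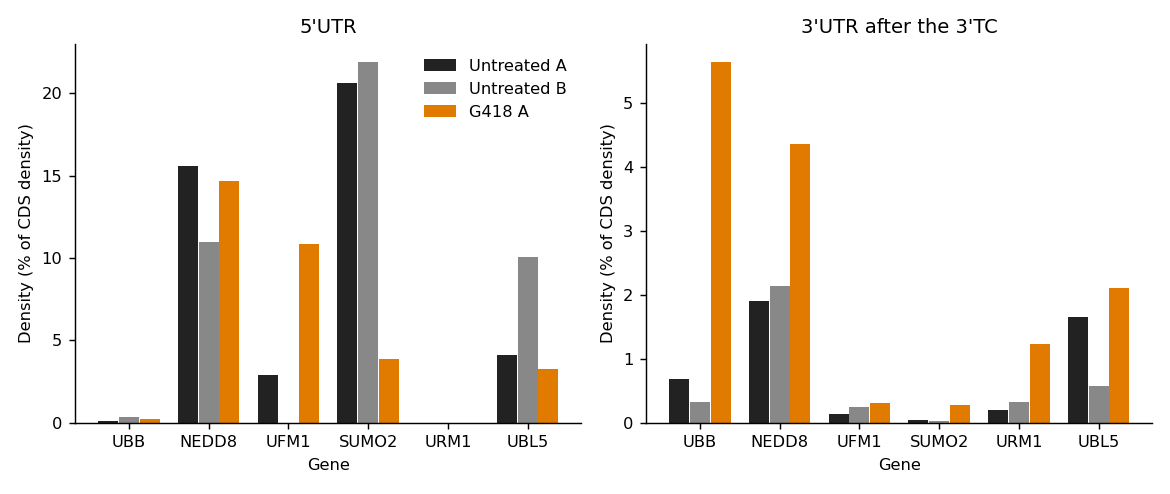
Density on the 5′UTR and on the 3′UTR behind the 3′TC, each as a percentage of the CDS density of the same gene (linear axes that start at 0), in the 3 libraries; the bars have no error bars, and many rest on fewer than 20 reads. The 5′UTR bar of SUMO2 goes from 20.6% and 21.9% to 3.86% in G418 A, and the bar of UBB behind the 3′TC from 0.678% and 0.331% to 5.64%.

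The enzymes that mature, activate and conjugate these modifiers were followed in 7 lists of 88 genes, 63 of which were tested. Of the 63, 5 rose in CDS density by edgeR and 0 fell, beside the 3.04% and 0.581% of all transcripts, with a median log2 change of 0.04. Ubiquitin activating and conjugating enzymes and deubiquitinases made up 4 of the 5, from 16 tested. UBE2D2, a conjugating enzyme that works with many ligases, rose from 143 and 156 RPKM to 314 RPKM (log2 change 1.07, edgeR adjusted p = 2.76e-05), and its G418 value was above both untreated libraries. UBE2S, which extends ubiquitin chains for the anaphase-promoting complex, rose from 140 and 169 to 273 RPKM (log2 change 0.82, adjusted p = 5.64e-04). UBE2K rose from 111 and 88.3 to 184 RPKM (log2 change 0.88, adjusted p = 0.00174), and UBE2R2, the conjugating enzyme of cullin ligases, which was added after its values were seen, from 66.9 and 60.9 to 113 RPKM (log2 change 0.82, adjusted p = 0.0145). In the NEDD8 pathway 1 of 14 rose, DCUN1D5, a helper of cullin neddylation, from 108 and 85.7 to 156 RPKM (log2 change 0.68, adjusted p = 0.0242). With TMM factors DCUN1D5 was no longer called (edgeR adjusted p = 0.0704). DESeq2 called UBE2D2 (adjusted p = 0.0142) and did not call UBE2S (adjusted p = 0.0847). It gave no adjusted p for UBE2K, UBE2R2 and DCUN1D5.

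No gene of the other lists passed the CDS test. In the SUMO pathway (14 tested) the largest change was that of RNF4, a ubiquitin ligase that recognises SUMO chains, at -0.83 (edgeR adjusted p = 0.138). In the UFM1 pathway (5 tested) it was that of the conjugating enzyme UFC1 at 0.37 (edgeR adjusted p = 0.318), and among the URM1 pathway genes (4 tested) that of MOCS3, which activates URM1, at -0.51 (edgeR adjusted p = 0.488). Of the 2 UBL5 partners, PRPF38A had 0.31 (edgeR adjusted p = 0.582), and of 8 other ubiquitin-like precursors GABARAPL2 had -0.33 (edgeR adjusted p = 0.356).

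RRTS was above both untreated libraries for 53 of the 63, beside the 72% of all transcripts, and edgeR called none of them for readthrough. The median RRTS of the lists in G418 A was 12.7% for the ubiquitin enzymes, 19.4% for the other precursors, 23.3% for the NEDD8 pathway, 26.7% for the SUMO pathway, 32.1% for the UFM1 pathway, 42.0% for the URM1 pathway and 43.5% for the UBL5 partners. Of the genes with at least 20 reads there, the highest of its list was ATG12, the autophagy modifier that is made without a tail to cut, at 253% (89 reads in G418 A against 1 and 0 without treatment), and in the NEDD8 pathway RNF7, a cullin-associated RING protein, at 146% (96 reads against 4 and 5). UBA2, a subunit of the SUMO activating enzyme, reached 98.7% (202 reads against 4 and 9), UBE2C, which works with the anaphase-promoting complex, 92.0% (137 reads against 3 and 9) and CDK5RAP3, a part of the UFM1 ligase, 38.2% (21 reads against 2 and 4). A score above 100% means that the region held more reads per nucleotide than the CDS of the same transcript.

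FAU, which encodes a ubiquitin-like domain fused to a ribosomal protein and ends in UAAG, was named after its values were seen. It had 0, 2 and 33 readthrough reads in Untreated A, Untreated B and G418 A, and scored 28.6% with G418.

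The tested transcript most like each gene was found among those with the same stop signal, by Euclidean distance over 6 values (log2 CDS RPKM and the square root of RRTS in each of the 3 libraries). It was TXN for UBB (distance 0.388 among 303 candidates), MCM7 for NEDD8 (0.447 among 375), NDUFS5 for SUMO2 (0.333 among 787), SYF2 for UFM1 (0.404 among 303), TK1 for URM1 (0.234 among 1053) and RACK1 for UBL5 (0.638 among 350). The 6 values were not brought to a common scale, and log2 RPKM spans the wider range, so CDS level weighs most in this distance. RRTS was itself among the values used, so a likeness in level or in RRTS is partly set by the choice. For UBB the likeness was one of level more than of readthrough: TXN had 1528 RPKM and an RRTS of 16.3% in G418 A where UBB had 1674 RPKM and 39.2%. The same held for UBL5 (RRTS of 3.61% against 27.1% in RACK1) and SUMO2 (7.88% against 16.4% in NDUFS5). NEDD8 and MCM7 were close in G418 A (29.0% and 29.7%).

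The libraries held between 5857230 and 9477972 reads assigned to transcripts, and the CDS of the 6 genes held between 200 and 10812 reads a library. Of the reads on the transcripts listed, 3946896 to 6470030 a library, 0.335% to 0.389% lay on 3′UTRs without G418 and 2.55% with it. Of 5 markers of HEK293T cells 4 were listed in every library (KRT8, KRT18, VIM and NEFM), and of 6 markers of other cell types 5 were in none, while COL1A1 was listed at 7.98 to 10.7 RPKM.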

How the data were processed

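RPFs of 28 to 35 nt were, per the study's methods, aligned by the authors with STAR to hg38 and assigned to a single transcript per gene. The authors deposited whole-number read counts, RPM values (reads scaled to the library's total assigned to transcripts), RPKM densities, which leave out 18 nt at the start and 15 nt at the end of the CDS, and the RRTS, a ratio of 2 RPKM densities that leaves out the first 6 nt after the stop codon. All nonzero deposited RPM values came within 0.05 of a whole number of reads once divided by the worth of 1 read, and these reads were used, because the deposited whole-number CDS counts were 1 lower for 9080 of 9099 transcripts in Untreated A (for Untreated B 283, for G418 A 72).

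Transcripts whose mean CDS count was above 127.7 reads (after the minimum of mapped reads in the study's methods) and whose readthrough region had 18 nt or more were tested with edgeR 4.0.16 (R 4.3.3), with library sizes behind the RPM scale and Benjamini-Hochberg adjustment over 5684 transcripts. Alternatives were TMM factors (0.974, 0.994 and 1.03 for Untreated A, Untreated B and G418 A), other read minima, DESeq2 1.42.0, the deposited counts, the whole 3′UTR and leaving out an untreated library. Groups came from the labels. Sequences and annotation came from hg38 and GENCODE, where the stop codon, CDS length and readthrough region of all 6 genes matched the tables, the 3′UTR length of 5 and the 5′UTR length of 4. Copies of 28-nt stretches were sought on both strands of hg38. Beyond the members, the text names, for each list, genes past the CDS test (or, with none, that with the largest change) and that with the highest RRTS at 20 or more reads, at most 4 a list, and the nearest transcript with the same stop signal. FAU, UBE2R2 and the comparisons of UTRs were chosen after their values were seen. A gene that is withheld is not reported here. The members and lists were chosen with earlier results of these data known.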

Additional observations from a re-analysis of the deposited data

How the results depend on the processing

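RRTS of all 6 genes was above that of the untreated library kept when the other was left out, which follows from its being above both. Their whole 3′UTR score was also above both. It includes the reads of the readthrough region, so it is not a separate check, and its share over all transcripts was not computed. None of the 6 passed a 2-fold CDS change with TMM factors or without an untreated library. UBB kept its readthrough call under the read minima and DESeq2. DESeq2 called 4 of the 6 genes where edgeR called 1, and 1373 transcripts where edgeR called 43. The latter was 107 at a minimum of 500 CDS reads, which keeps 3 of the 6 genes, and 28 with no minimum. For CDS density edgeR called 173 transcripts higher and 33 lower, against 110 and 41 with TMM factors, 27 and 13 at 500 reads and 10 and 17 by DESeq2, which gave an adjusted p for 1937 transcripts. TMM moved the median log2 change of all transcripts from 0.07 to 0.00, and the CDS changes of UBB and UFM1, which passed no test, from 0.00 and 0.01 to -0.07 and -0.04. Of the 5 enzymes called, all kept their direction in the alternatives that gave them a value, DCUN1D5 lost its call with TMM factors and at 500 reads (edgeR adjusted p = 0.0704 and 0.0921), and UBE2S with DESeq2 (adjusted p = 0.0847). DESeq2 gave no adjusted p for UBE2K, UBE2R2 and DCUN1D5. The causes were not tested beyond these constructions. Leaving out an untreated library left no residual degrees of freedom, so calls could not be fitted; the ratio of RRTS was then 87.2 to 99.5 for UBB, 6.23 to 9.44 for SUMO2 and 8.41 to 23.1 for UBL5. Over the whole 3′UTR, the G418 score was 12.3% for UBB, 7.44% for NEDD8, 2.96% for UBL5, 1.28% for URM1, 0.449% for UFM1 and 0.447% for SUMO2. No paired analysis was possible because the groups share only 1 replicate letter. Readthrough of UFM1 and URM1 rests on 4 and 2 reads, which limits both.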
